A study of Mus musculus with 12 samples.

Results

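The chemokine system of the mouse was followed here across 60 genes, 38 chemokine ligands and 22 receptors, 4 of the receptors being atypical ones. They were chosen by symbol alone: every gene of the Ccl, Cxcl, Ccr, Cxcr and Ackr series present in both count tables, together with Cx3cl1, Cx3cr1, Xcl1 and Xcr1. These are 60 of the 55335 genes counted. The study applied midostaurin, a small-molecule inhibitor of several kinases including FLT3, KIT and protein kinase C, to CT26, a murine colorectal cancer line labelled wild type. The groups were CT26 subcutaneous tumors given 40 mg/kg midostaurin, beginning 7 days after the cells were inoculated and continuing for 2 weeks; vehicle tumors; CT26 cells kept 48 h in 1 µM midostaurin; and CT26 cells kept in DMSO. Each group had 3 poly(A)-selected RNA-seq libraries. The labels do not state whether the libraries within a group are from different cultures or mice, so every p-value below measures only the spread between these libraries, which may be technical.

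Tumor libraries held 33399701 to 48109497 counts and cell libraries 34787389 to 38144039. The midostaurin tumor columns are numbered 2, 3 and 4, and number 4 matches its group's name but no single label. Midostaurin tumor 3 stood apart in several of the genes described here, so the main tumor results are given with and without it. Both cell libraries numbered 1 also stood apart from numbers 2 and 3. Of 9 epithelial and colon markers checked in the cultures, Krt18 reached 22.7 to 29.6 CPM, the counts of a gene scaled to its library's total, and Krt20 9.68 to 53.2 CPM, whereas Epcam and Krt19 had 0 counts in all 6 cell libraries. Red cell markers summed to 1579 CPM in vehicle tumor 1 and 13.6 to 352 CPM in the other tumors, and skin markers to 749 CPM in vehicle tumor 2 and 1.37 to 1.59 CPM in the other tumors. All levels below are CPM on one TMM scaling over the 12 libraries, and levels of different genes are compared only as CPM per kilobase of exonic length.

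Chemokines are small secreted proteins that guide leukocytes through G protein-coupled receptors, and the receptor repertoire of a cell decides which gradients it follows. Ligands with the CXC motif and an ELR sequence, among them Cxcl1, Cxcl2, Cxcl3 and Cxcl5 of mice, act on Cxcr2 and draw neutrophils. The Ccr2 ligands Ccl2, Ccl7 and Ccl12 draw monocytes. The interferon-inducible ligands Cxcl9, Cxcl10 and Cxcl11 act on Cxcr3 of activated T and NK cells. Atypical receptors bind chemokines without G protein signalling and remove or hold them.

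Most of the system was at or near 0 in the cultured line. Of the 60 genes, 31 had 0 counts in all 6 cell libraries and 4 of these, Ccl19, Ccl21b, Ccl26 and Cxcl17, had 0 counts in every library of the series. A count of 0 in a cell library allows up to 3 counts, 0.0759 to 0.0854 CPM. Taking a mean of at least 1 CPM over the 6 cell libraries as made in culture gave 9 genes, the ligands Cxcl1, Ccl25, Cxcl3, Cxcl10, Ccl2, Ccl9 and Cxcl5 and the receptors Ccr1 and Ackr3. A further 7 genes had 0.1 to 1 CPM in culture (Ccl3, Ccl5, Ccl20, Ccl28, Cxcl2, Cxcr2 and Cxcr3). Another 20 genes, 14 ligands and 6 receptors, lay under 0.1 CPM in culture and at 1 CPM or more on average in the tumors, and the remaining 24 were low in both. These classes are descriptions of level and carry no test.

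**Figure D1:**
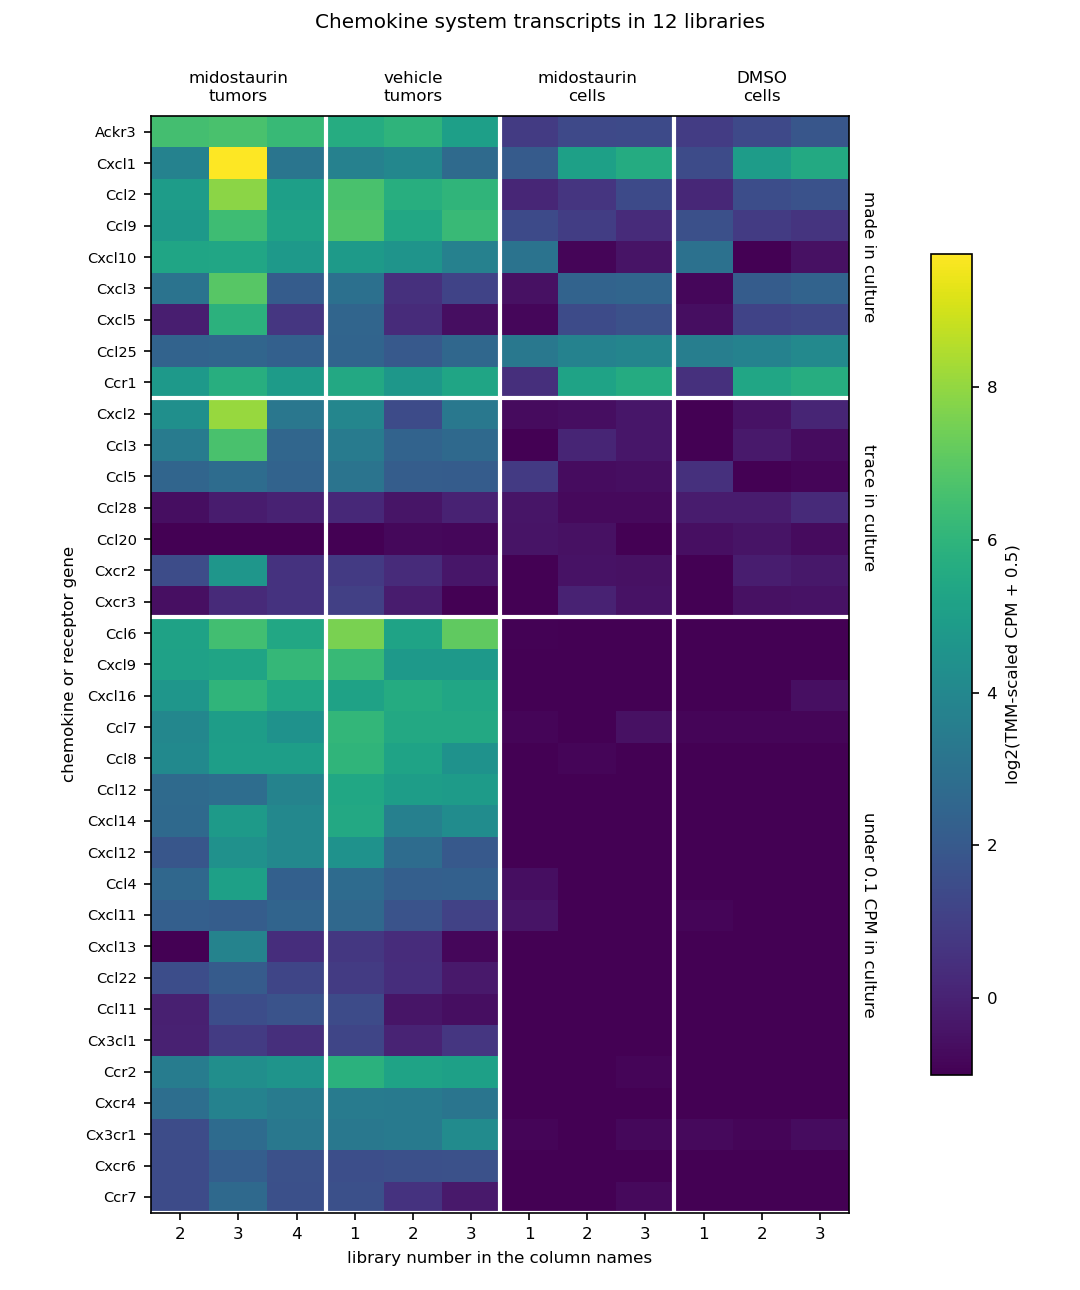
Levels of 35 of the 36 chemokine genes that were not low everywhere (rows, grouped by class) in the 12 libraries (columns, numbered as in the count tables), as log2 of TMM-scaled CPM plus 0.5. The 19 genes of the lowest block are dark in all 6 cell libraries, and in midostaurin tumor 3 Cxcl1 reaches 854 CPM, the brightest cell of the map.

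Among ligands made by the cultured cells, Cxcl1, a neutrophil attractant, stood highest per kilobase in cell libraries 2 and 3 of both treatments. Its level was 3.77, 33.8 and 48.1 CPM in midostaurin cells 1, 2 and 3, against 2.23, 30.5 and 45.4 CPM in the DMSO cells of the same numbers. Cxcl3, of the same subfamily, had 0.207, 4.87 and 5.17 CPM in midostaurin cells, against 0.0759, 3.86 and 4.90 CPM in DMSO cells. Cxcl5, another Cxcr2 ligand, had 0.0774, 2.27 and 2.68 CPM in midostaurin cells, against 0.152, 1.71 and 1.91 CPM in DMSO cells. In all 3 genes both libraries numbered 1 were the lowest of their group, and the drug groups overlapped. Cxcl2, the fourth of these ligands, stayed at 0.129 to 0.276 CPM in midostaurin cells and 0 to 0.570 CPM in DMSO cells.

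Cxcl1, Cxcl2, Cxcl3 and Cxcl5 lie in one cluster on chromosome 5 (90759360 to 90905938, mm10) that also holds Cxcl15. The promoter windows of Cxcl1, Cxcl2 and Cxcl3 are shown because these genes were high together in 1 tumor described below and share a stretch of sequence. Each window runs from 250 bases before to 50 bases after the RefSeq start (build GRCm38.p6, plus strand). The windows are chr5:90890995-90891294 for Cxcl1, chr5:90903649-90903948 for Cxcl2 and chr5:90785851-90786150 for Cxcl3. Capitals mark the longest run of letters before the start that the 3 windows have in common.
Cxcl1: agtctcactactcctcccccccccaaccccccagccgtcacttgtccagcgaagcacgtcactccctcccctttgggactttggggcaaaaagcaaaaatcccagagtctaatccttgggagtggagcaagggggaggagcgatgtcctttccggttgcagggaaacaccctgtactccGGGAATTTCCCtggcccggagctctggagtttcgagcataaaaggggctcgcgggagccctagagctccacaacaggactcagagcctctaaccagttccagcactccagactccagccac
Cxcl2: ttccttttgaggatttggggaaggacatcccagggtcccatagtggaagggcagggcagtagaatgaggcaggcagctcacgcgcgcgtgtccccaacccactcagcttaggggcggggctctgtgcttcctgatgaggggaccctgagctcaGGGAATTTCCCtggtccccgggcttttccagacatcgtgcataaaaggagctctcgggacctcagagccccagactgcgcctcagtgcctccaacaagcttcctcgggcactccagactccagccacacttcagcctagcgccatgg
Cxcl3: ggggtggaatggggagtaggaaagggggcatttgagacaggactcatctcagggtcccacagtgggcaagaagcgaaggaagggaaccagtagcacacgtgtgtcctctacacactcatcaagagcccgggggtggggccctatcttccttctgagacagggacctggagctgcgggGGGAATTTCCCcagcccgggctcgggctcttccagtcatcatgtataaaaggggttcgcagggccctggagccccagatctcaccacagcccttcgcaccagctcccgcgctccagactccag
The run GGGAATTTCCC of 11 letters lies at positions -71 to -61 in Cxcl1, -97 to -87 in Cxcl2 and -73 to -63 in Cxcl3, with the first transcribed base as 0. Searched on both strands, it occurred in 14 of 32851 mouse windows (0.0426%), these 3 included, and in no other of the 45 chemokine genes that had a window. The run overlaps matches to the NF-kB consensus, a degenerate motif of 10 letters that was found, on either strand, in 8.46% of all windows and in 12 of the 45 genes. Such matches are letters in a window and were not tested as binding sites. Shares of windows and of genes count different units, here and for the motif below, and are not compared.

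The other ligands made in culture belonged to different subfamilies. Ccl25, a ligand of Ccr9 on gut-homing lymphocytes, had 9.29, 13.04 and 14.2 CPM in midostaurin cells, against 11.7, 12.97 and 15.9 CPM in DMSO cells. Cxcl10 had 7.90, 0.0547 and 0.249 CPM in midostaurin cells, against 7.54, 0 and 0.199 CPM in DMSO cells. Cxcl10 was thus high in both libraries numbered 1 and near 0 in the other 4, the opposite pattern to Cxcl1, and it ranked highest per kilobase of all ligands in both libraries numbered 1. Ccl2 had 0.620, 1.09 and 2.16 CPM in midostaurin cells, against 0.658, 2.42 and 2.76 CPM in DMSO cells. Ccl9, a Ccr1 ligand of mice, had 2.14, 1.42 and 0.746 CPM in midostaurin cells, against 2.58, 1.33 and 1.05 CPM in DMSO cells. Ccl5 (RANTES), a Ccr1 ligand, followed Cxcl10 with 1.29 CPM in midostaurin cells 1 and 0.911 CPM in DMSO cells 1, against at most 0.166 CPM in the other 4 cell libraries.

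The Cxcl10 window (chr5:92348840-92349139, GRCm38.p6, minus strand) is shown against the 3 above, since its gene had the opposite pattern over the cultures. Capitals mark matches, on either strand, to the NF-kB consensus and to the interferon-stimulated response element, a degenerate motif of 11 letters; the 2 motifs did not overlap here.
Cxcl10: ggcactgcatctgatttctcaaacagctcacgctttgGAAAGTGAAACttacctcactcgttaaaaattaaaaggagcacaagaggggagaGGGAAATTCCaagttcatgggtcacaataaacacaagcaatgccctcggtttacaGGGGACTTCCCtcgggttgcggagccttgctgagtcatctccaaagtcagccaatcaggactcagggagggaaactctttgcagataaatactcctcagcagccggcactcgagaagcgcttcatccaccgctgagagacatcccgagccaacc
The first capitals, at -213 to -203, are the interferon-stimulated response element, and the NF-kB consensus matched at -159 to -150 and, as overlapping matches, between -104 and -94. The interferon element was held by 1.92% of all windows and by 2 of the 45 chemokine genes, Cxcl10 and Ccl19, and by none of the Cxcl1, Cxcl2 and Cxcl3 windows.

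The 2 receptors transcribed in culture were Ccr1 and Ackr3. Ccr1, the receptor of Ccl3, Ccl5, Ccl6 and Ccl9 on myeloid cells, had 0.852, 36.7 and 48.3 CPM in midostaurin cells, against 0.911, 40.4 and 50.5 CPM in DMSO cells. It was near 1 CPM in both libraries numbered 1 and 36.7 CPM or more in the other 4. Cd68, a macrophage marker also found in the cultures, moved with it, at 4.98, 21.5 and 21.4 CPM in midostaurin cells and 4.48, 22.6 and 24.9 CPM in DMSO cells. So did Trem2, at 0.0516, 1.56 and 1.13 CPM in midostaurin cells and 0.177, 1.33 and 0.883 CPM in DMSO cells. Mertk did not, at 0.723, 0.793 and 0.221 CPM in midostaurin cells and 1.21, 0.952 and 0.285 CPM in DMSO cells. Adgre1 and C1qa had 0 counts in all 6 cell libraries. Ackr3, the scavenging receptor of Cxcl12, had 1.34, 2.10 and 2.18 CPM in midostaurin cells, against 1.39, 2.07 and 3.16 CPM in DMSO cells. The matching ligand Cxcl12 and its signalling receptor Cxcr4 had 0 counts in all 6 cell libraries.

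**Figure D2:**
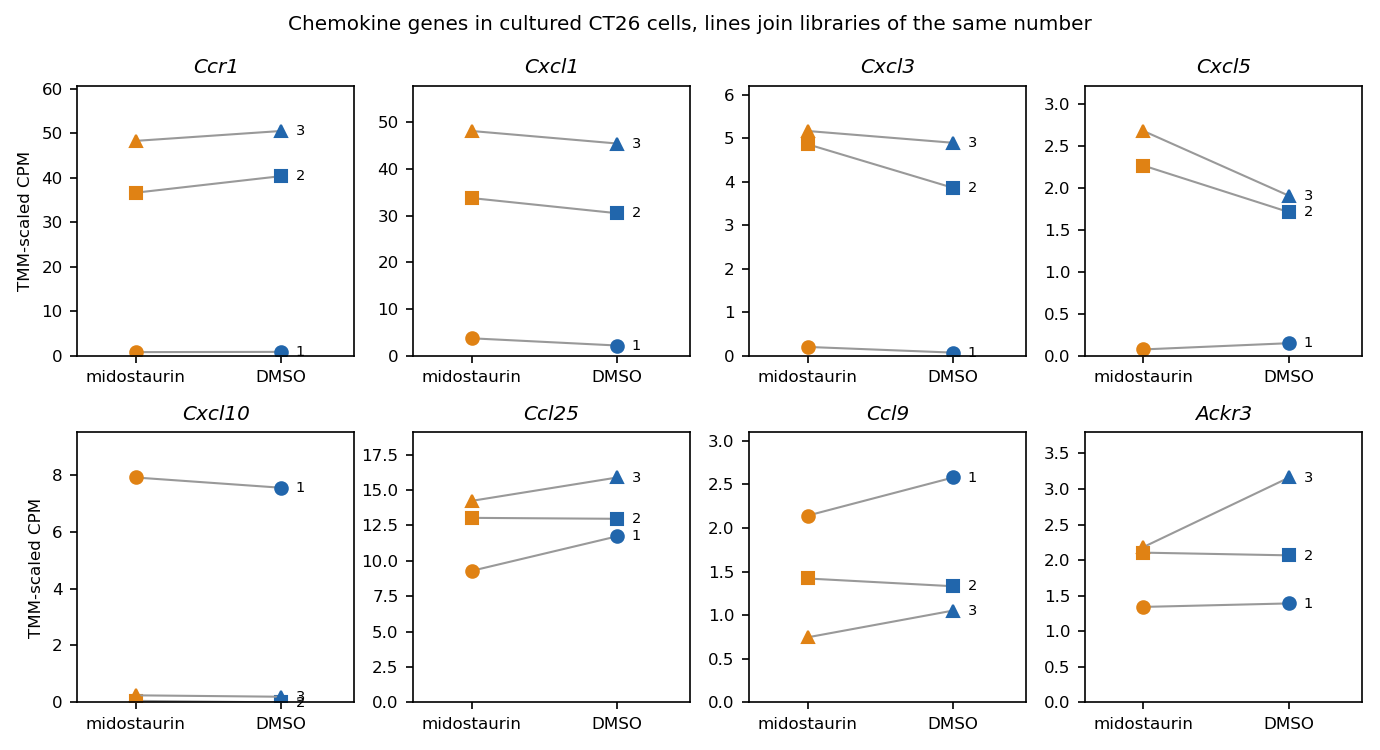
TMM-scaled CPM of 8 chemokine genes in midostaurin cells (left of each panel) and DMSO cells (right), with lines joining libraries of the same number. For Ccr1, Cxcl1, Cxcl3 and Cxcl5 the pair numbered 1 lies at the bottom of the panel and for Cxcl10 at the top, and in Ccr1 the lines between treatments run nearly level, with 36.7 CPM in midostaurin cells 2 and 40.4 CPM in DMSO cells 2.

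No chemokine gene passed the test of midostaurin against DMSO in culture. Of 10 genes with enough counts to be tested, 0 had an adjusted p under 0.05 by edgeR (0% of all 14538 genes tested), and DESeq2 and limma-voom also called 0 of them (0.0138% of all genes by either tool). At an unadjusted p under 0.05 there was 1, Ccl28, against 0.516% of all genes. Ccl28, a mucosal ligand of Ccr10 and Ccr3, had 0.258, 0.109 and 0.111 CPM in midostaurin cells, against 0.379, 0.381 and 0.712 CPM in DMSO cells, and the groups did not overlap. Its log2 fold change was -1.59 ± 0.52 (SE, n = 3 libraries a group), with an adjusted p of 1.00 in the edgeR fit, and it rested on at most 25 counts in a library. With the library number as a block the estimate of Cxcl1 was 0.21 ± 0.09 (SE) and that of Ccl28 -1.58 ± 0.55 (SE), the only 2 of 10 at an unadjusted p under 0.05, against 4.33% of all genes, and again none had an adjusted p under 0.05 by edgeR.

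The vehicle tumors held far more of the system than the DMSO cells. In the edgeR fit over all 12 libraries 27 of the 37 genes tested passed an adjusted p of 0.05, 26 higher in vehicle tumors and 1 lower, against 44.2% of all genes tested (24.5% higher and 19.7% lower). The single gene lower in tumors was Ccl25, with 4.97, 3.55 and 5.53 CPM in vehicle tumors against 11.7, 12.97 and 15.9 CPM in DMSO cells (log2 fold change -1.53 ± 0.22 SE, adjusted p 0.000322 by edgeR, n = 3 each). Its groups did not overlap, and its receptor Ccr9 did not exceed 0.279 CPM in any tumor. Because a tumor is a mixture in bulk RNA, fewer cells of a type and less RNA per cell cannot be told apart in any tumor value given here.

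Of the genes made in culture, Ackr3, Ccl2 and Ccl9 were far higher in vehicle tumors. Ackr3 had 49.0, 62.9 and 32.5 CPM in vehicle tumors and 1.39, 2.07 and 3.16 CPM in DMSO cells, 4.45 ± 0.35 higher on the log2 scale (SE), for which edgeR gave an adjusted p of 1.18e-05. Ccl2 rose by 5.23 ± 0.94 and Ccl9 by 5.51 ± 0.62 (log2, SE), both called by edgeR, with no overlap between vehicle tumors and DMSO cells for either gene. Ccr1 was not separated, at 44.7, 25.4 and 38.8 CPM in vehicle tumors and 0.911, 40.4 and 50.5 CPM in DMSO cells. Cxcl1 had 12.7, 15.0 and 6.13 CPM in vehicle tumors, inside the range of the DMSO cells, and Cxcl3 and Cxcl5 likewise overlapped.

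Genes at or under 0.1 CPM in culture included some of the highest tumor ligands. Per kilobase the 10 highest ligands over the 6 tumors were, in order, Cxcl1, Ccl2, Ccl8, Ccl6, Ccl7, Ccl12, Ccl3, Cxcl2, Ccl9 and Cxcl9. The first place of Cxcl1 came from midostaurin tumor 3, since it ranked between 10 and 15 in the other 5 tumors. Cxcl2 ranked 4 and Ccl3 ranked 3 in that tumor, against 9 to 15 and 6 to 13 in the other 5. Ccl12 had 0 counts in all 6 cell libraries, and against a floor of 3 counts per library its mean was at least 108-fold higher in midostaurin tumors and at least 423-fold higher in vehicle tumors. For Cxcl9 the same bounds were 592-fold and 534-fold. Ccl6, a Ccr1 ligand found in mice, had 36.1, 88.1 and 42.6 CPM in midostaurin tumors and 191, 36.9 and 138 CPM in vehicle tumors. Ccl8, which signals through Ccr8 in mice, had 16.8, 31.9 and 32.1 CPM in midostaurin tumors and 64.4, 37.2 and 21.8 CPM in vehicle tumors. Both overlapped between treatments.

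Between midostaurin and vehicle tumors no chemokine gene passed the edgeR test. Of 38 genes tested, 0 had an adjusted p under 0.05 by edgeR, against 0.0435% of the 16094 genes tested (7 genes). At an unadjusted p under 0.05 there were 11 of 38, 7 higher and 4 lower, against 19.9% of all genes (10.5% higher and 9.43% lower). DESeq2 called 5 of the 31 for which it gave an adjusted p, 2 higher and 3 lower, against 10.4% of all genes (6.3% higher and 4.13% lower), and limma-voom called 0 against 0.0994%. The groups did not overlap in 7 of 38 genes, 2 higher and 5 lower, against 27.2% of all genes (13.1% higher and 14.1% lower). The median log2 fold change was 0.19 over the 38 genes and -0.01 over all genes, and -0.13 over the same 38 without midostaurin tumor 3.

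**Figure D3:**
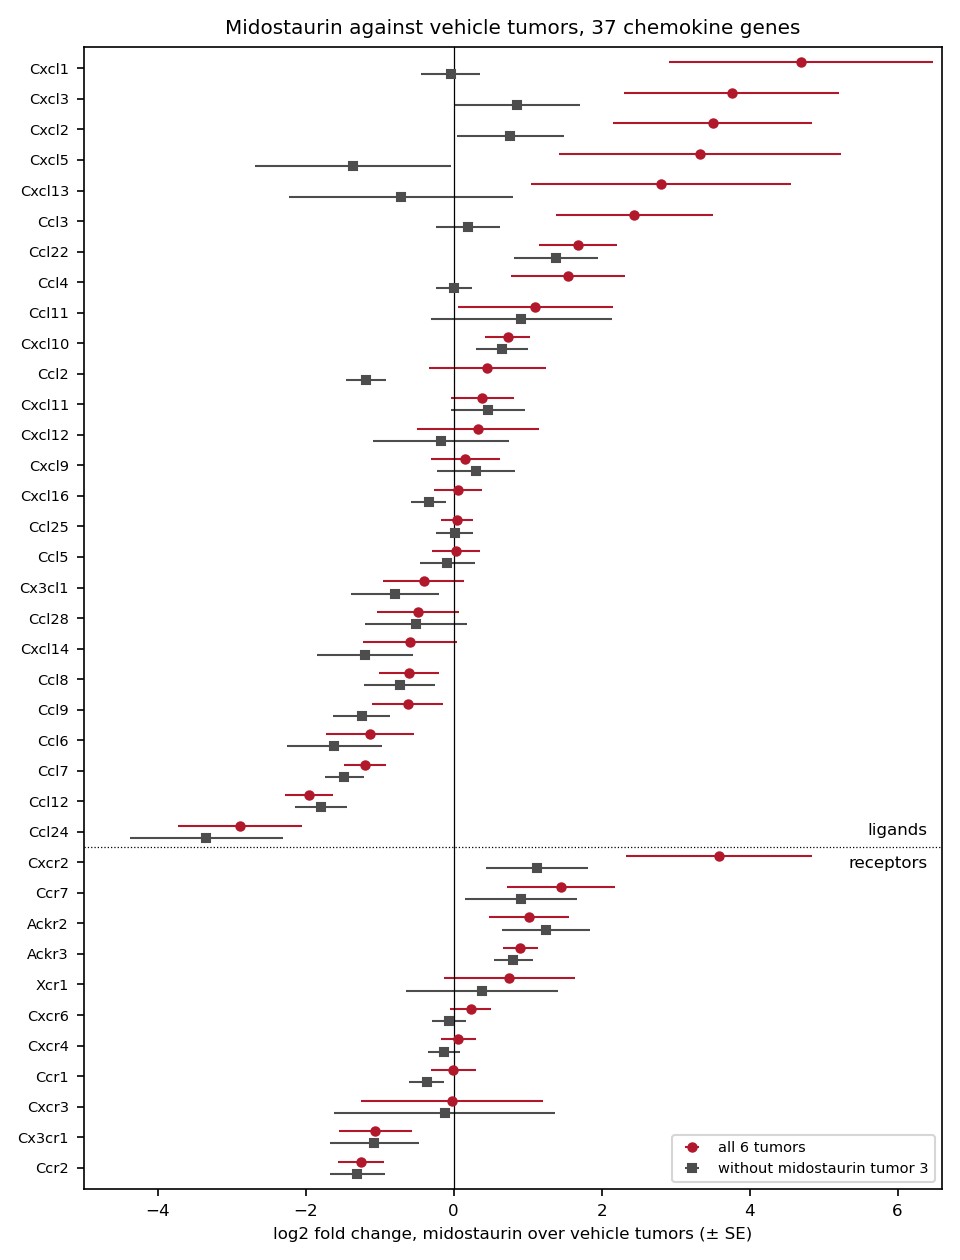
Log2 fold change of midostaurin over vehicle tumors for 37 of the 38 tested genes, ligands above the dotted line and receptors below, with bars of 1 SE. Red circles use all 6 tumors and grey squares leave out midostaurin tumor 3. The circles of Cxcl1, Cxcl2, Cxcl3 and Cxcl5 lie above 3 and their squares at -0.04, 0.77, 0.85 and -1.36, while Ccl12, Ccl7 and Ccr2 stay below -1 in both.

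The neutrophil-attracting ligands Cxcl1, Cxcl2, Cxcl3 and Cxcl5 were set apart by 1 tumor. Cxcl1 had 13.1, 854 and 8.42 CPM in midostaurin tumors 2, 3 and 4, against 12.7, 15.0 and 6.13 CPM in vehicle tumors 1, 2 and 3. Cxcl2 had 20.1, 269 and 9.12 CPM in midostaurin tumors, against 14.5, 2.27 and 9.35 CPM in vehicle tumors. Cxcl3 had 8.04, 125 and 3.87 CPM in midostaurin tumors, against 7.41, 0.920 and 1.74 CPM in vehicle tumors. In each case midostaurin tumor 3 was far above the other 5 tumors, and without it the groups overlapped. Cxcl5 had 0.433, 59.3 and 1.11 CPM in midostaurin tumors, against 5.12, 0.758 and 0.162 CPM in vehicle tumors, and without tumor 3 its log2 fold change turned to -1.36 where all tumors gave 3.33 ± 1.90 (SE, n = 3 each); without vehicle tumor 1 it was 5.49. For Cxcl1 the log2 fold change was 4.70 ± 1.78 (SE, adjusted p 0.212 by edgeR) with all tumors and -0.04 without tumor 3. Cxcl2 and Cxcl3 had 3.50 ± 1.34 and 3.76 ± 1.46 (SE) with all tumors, against 0.77 and 0.85 without it.

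Their receptor Cxcr2 had 2.34, 24.7 and 1.00 CPM in midostaurin tumors, against 1.29, 0.758 and 0.278 CPM in vehicle tumors (log2 fold change 3.59 ± 1.26 SE, and 1.13 without tumor 3). The macrophage inflammatory proteins Ccl3, a Ccr1 ligand, and Ccl4 showed the same tumor. Ccl3 had 10.5, 100.0 and 5.40 CPM in midostaurin tumors, against 10.6, 4.79 and 5.81 CPM in vehicle tumors. Ccl4 had 5.42, 33.6 and 4.38 CPM in midostaurin tumors, against 6.16, 4.20 and 4.47 CPM in vehicle tumors. Cxcl13, the B cell attractant that acts on Cxcr5, had 0, 13.5 and 0.808 CPM in midostaurin tumors, against 1.19, 0.785 and 0.0694 CPM in vehicle tumors. Leaving out tumor 3 gave log2 fold changes of 0.19 for Ccl3, 0.01 for Ccl4 and -0.71 for Cxcl13. Leaving out vehicle tumor 1 instead raised the estimate to 5.09 for Cxcl3, 4.09 for Cxcl2, 4.18 for Cxcr2 and 3.49 for Cxcl13. In all, 8 of 38 tested genes had a value in 1 tumor at least 5 times that of every other tumor, and in all 8 that tumor was midostaurin tumor 3, against 0.472% of all genes for any tumor and 0.273% for midostaurin tumor 3 (44 genes).

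**Figure D4:**
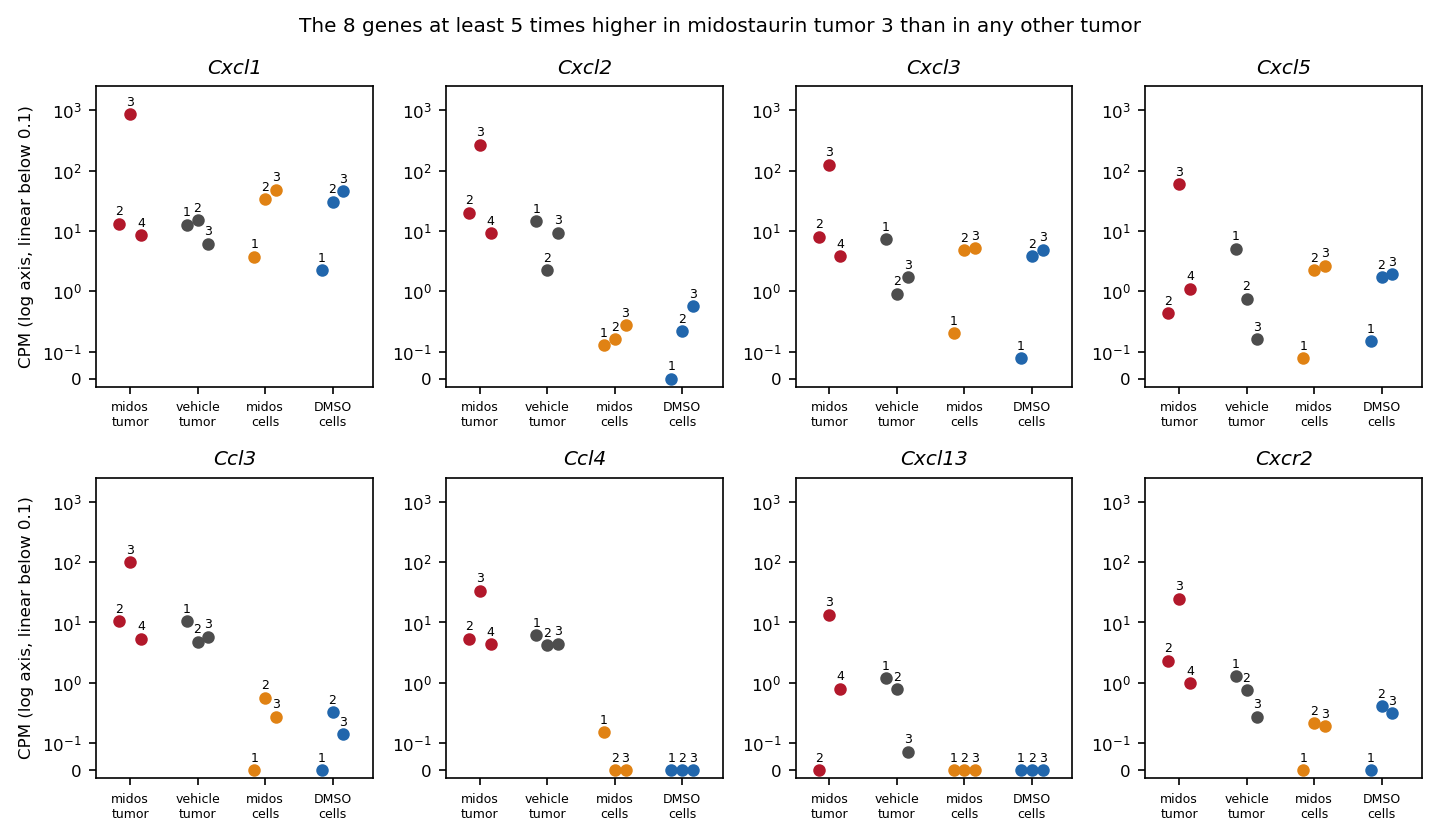
CPM of the 8 genes in the 12 libraries, on a log axis that is linear below 0.1, with midostaurin tumors, vehicle tumors, midostaurin cells and DMSO cells from left to right and each point labelled with its library number. Midostaurin tumor 3 is the highest point of every panel, from 13.5 CPM for Cxcl13 to 854 CPM for Cxcl1.

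Neutrophil markers were high in the same tumor, and 0 of 9 tested passed an adjusted p of 0.05 by edgeR in the comparison of the groups (0.0435% of all genes). At an unadjusted p under 0.05 by edgeR there were 4, all higher, against 19.9% of all genes (10.5% higher). The 13 markers summed to 60.1, 765 and 36.5 CPM in midostaurin tumors, against 50.4, 34.8 and 35.7 CPM in vehicle tumors. S100a9, an abundant neutrophil calcium-binding protein, had 369.5 CPM in midostaurin tumor 3 and 1.11 to 11.2 CPM in the other tumors. All 9 markers tested had a fold change above 0, with a median log2 value of 2.48, or 0.15 without tumor 3. Per 1000 CPM of summed neutrophil markers, Cxcl2 came to 334, 351 and 250 CPM in midostaurin tumors and 288, 65.4 and 262 CPM in vehicle tumors, so that tumor 3 lay close to its group. The same held for the other 3 of the 5 genes set on this scale: in midostaurin tumors Cxcr2 came to 39.0, 32.3 and 27.4 CPM, Cxcl3 to 134, 163 and 106 CPM and Ccl3 to 175, 131 and 148 CPM. Their ranges in vehicle tumors were 7.78 to 25.7 CPM for Cxcr2, 26.5 to 147 CPM for Cxcl3 and 138 to 211 CPM for Ccl3. Cxcl1 came to 218, 1117 and 231 CPM in midostaurin tumors and 251, 430 and 172 CPM in vehicle tumors, and there alone among the 5 genes tumor 3 still stood apart. These ratios carry no test, and Cxcl5, Ccl4 and Cxcl13 were not set on this scale. The part of these cells in the ligand values was not tested. Transcripts of some cytokines that induce these ligands were high in the same tumor. Il1b had 26.6, 403 and 12.5 CPM in midostaurin tumors, against 13.6, 6.06 and 6.76 CPM in vehicle tumors, with 0 counts in all 6 cell libraries. Il6 had 28.5 CPM in tumor 3, against at most 1.83 CPM in the other tumors. Tnf and Ifng stood out less, at 6.62 and 0.901 CPM in tumor 3, against at most 2.71 and 0.704 CPM in the other tumors. Il17a did not exceed 0.0932 CPM in any tumor.

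The monocyte-attracting ligands Ccl12 and Ccl7 and the receptor Ccr2 had lower levels in every midostaurin tumor than in any vehicle tumor, a difference called by DESeq2 and not by edgeR. Ccl12 (MCP-5 of mice), a Ccr2 ligand encoded on chromosome 11 (82101845 to 82103400, mm10), had 6.13, 6.74 and 13.4 CPM in midostaurin tumors, against 42.2, 31.0 and 29.4 CPM in vehicle tumors. Every midostaurin tumor lay below every vehicle tumor. The log2 fold change was -1.96 ± 0.32 (SE, n = 3 each), with an adjusted p of 0.0841 by edgeR and 1.06e-07 by DESeq2, and it was -1.79 without tumor 3. Ccl7 (MCP-3), in the same gene cluster with Ccl2, Ccl11, Ccl8 and Ccl1, had 15.1, 31.0 and 21.8 CPM in midostaurin tumors, against 68.2, 43.6 and 44.2 CPM in vehicle tumors. Again the groups did not overlap, and the log2 fold change was -1.20 ± 0.29 (SE, adjusted p 0.11 by edgeR and 0.000771 by DESeq2), or -1.48 without tumor 3.

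Ccl2 (MCP-1), the main Ccr2 ligand, depended on tumor 3. It had 30.4, 236 and 32.5 CPM in midostaurin tumors, against 100.2, 52.0 and 65.3 CPM in vehicle tumors. With all tumors the log2 fold change was 0.46 ± 0.79 (SE, n = 3 each), and without tumor 3 it was -1.19, where the remaining 2 midostaurin tumors lay below all 3 vehicle tumors (adjusted p 0.174 by edgeR). Ccl9 behaved alike, with 27.3, 84.8 and 36.1 CPM in midostaurin tumors, against 108, 42.5 and 77.2 CPM in vehicle tumors, and log2 fold changes of -0.62 with and -1.24 without tumor 3. Ccl2, Ccl7, Ccl8 and Ccl12 summed to 68.5, 306 and 99.7 CPM in midostaurin tumors, against 275, 164 and 161 CPM in vehicle tumors.

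Ccr2, the receptor that brings monocytes out of the bone marrow, had 11.0, 19.4 and 23.2 CPM in midostaurin tumors, against 57.2, 37.3 and 33.5 CPM in vehicle tumors, with no overlap. Its log2 fold change was -1.25 ± 0.31 (SE, adjusted p 0.115 by edgeR and 0.00110 by DESeq2), or -1.30 without tumor 3. Cx3cr1, the fractalkine receptor of monocytes and resident macrophages, had 2.34, 6.15 and 9.37 CPM in midostaurin tumors, against 9.44, 10.1 and 17.8 CPM in vehicle tumors, with no overlap (log2 fold change -1.06 ± 0.50 SE, adjusted p 0.292 by edgeR). Ccr1 had 26.4, 52.5 and 29.3 CPM in midostaurin tumors, against 44.7, 25.4 and 38.8 CPM in vehicle tumors, and overlapped.

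**Figure D5:**
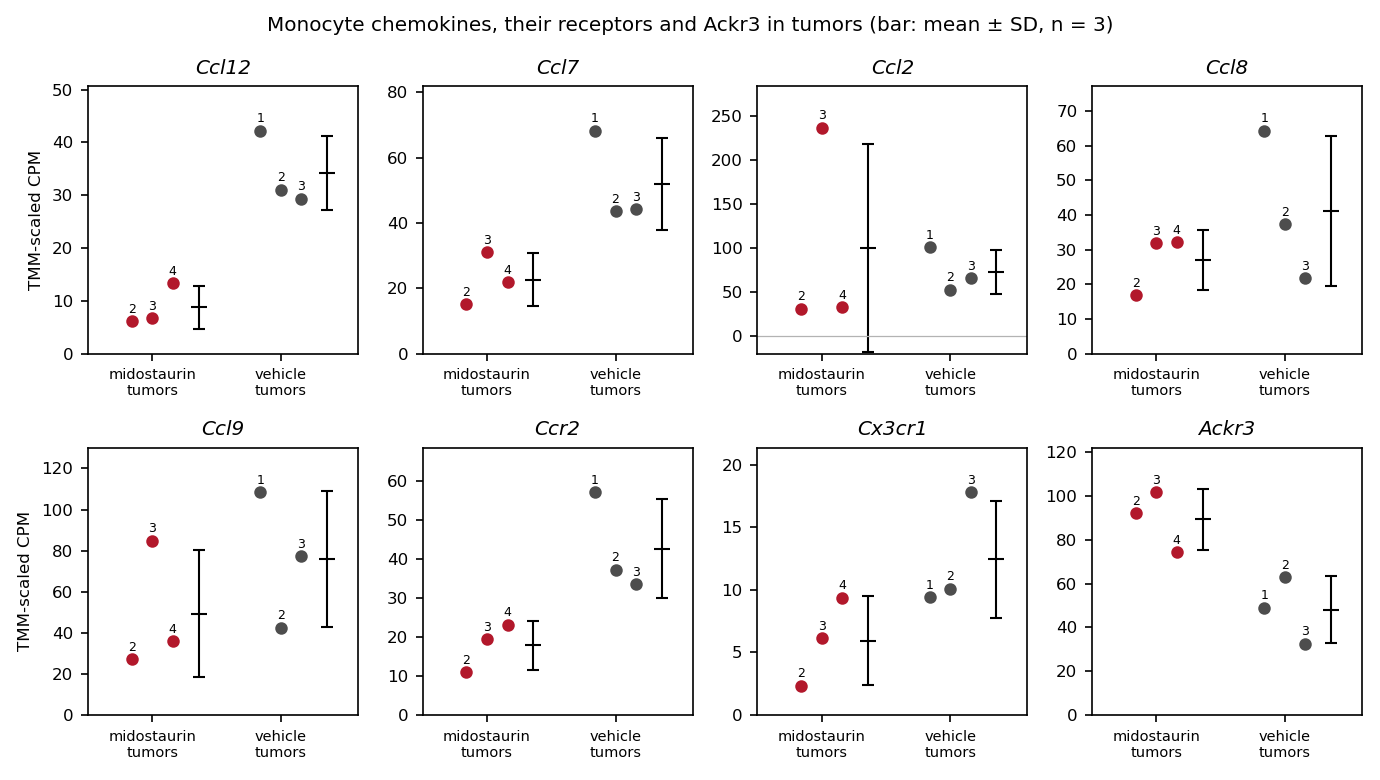
TMM-scaled CPM of Ccl12, Ccl7, Ccl2, Ccl8, Ccl9, Ccr2, Cx3cr1 and Ackr3 in midostaurin tumors (left) and vehicle tumors (right), with numbered points for tumors and bars for mean ± SD (n = 3). For Ccl12 the points run from 6.13 to 13.4 CPM in midostaurin tumors and from 29.4 to 42.2 CPM in vehicle tumors, and Ackr3 is the one panel in which every midostaurin tumor lies above every vehicle tumor.

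The 13 macrophage markers all had lower fitted levels in midostaurin tumors, which the monocyte markers did not. The macrophage markers, among them Csf1r, C1qa and Adgre1, summed to 431, 998 and 851 CPM in midostaurin tumors, against 1585, 1117 and 1452 CPM in vehicle tumors. All 13 had a log2 fold change below 0, with a median of -0.81 (-1.05 without tumor 3). By edgeR 0 passed an adjusted p of 0.05, and 5 had an unadjusted p under 0.05, all lower, against 19.9% of all genes (9.43% lower). DESeq2 called Trem2 (adjusted p 0.000557), Fcgr1 (0.0256), C1qc (0.0357), Msr1 (0.0376) and Mrc1 (0.045) lower, as it did 4.13% of all genes. It left the other macrophage markers uncalled. The 5 monocyte markers summed to 179, 218 and 154 CPM in midostaurin tumors, against 284, 128 and 142 CPM in vehicle tumors, with overlap, and 2 of the 5 had a fold change above 0 (Ly6c2 with 0.57 and Plac8 with 0.50 on the log2 scale). Of the monocyte markers 0 passed an adjusted p of 0.05 by edgeR and 1, F13a1, had an unadjusted p under 0.05 (log2 fold change -1.99). F13a1 was also the only monocyte marker called by DESeq2 (adjusted p 0.0216). Per 1000 CPM of these summed markers Ccl12 came to 14.2, 6.76 and 15.7 CPM in midostaurin tumors and 26.6, 27.8 and 20.2 CPM in vehicle tumors, which still did not overlap. On the same scale Ccr2 came to 25.5, 19.4 and 27.2 CPM in midostaurin tumors and 36.1, 33.4 and 23.1 CPM in vehicle tumors, and Ccl7 to 35.0, 31.1 and 25.6 CPM in midostaurin tumors and 43.0, 39.1 and 30.4 CPM in vehicle tumors, both with overlap. These ratios also carry no test, and the part of macrophages in the chemokine values was not tested otherwise.

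Without midostaurin tumor 3 more of the family lay lower than higher. Of 41 genes then tested, 9 had an unadjusted p under 0.05, 1 higher (Ackr3) and 8 lower (among them Ccl2, Ccl6, Ccl7, Ccl9, Ccl12, Ccl24 and Ccr2), against 16.7% of all genes (8.79% higher and 7.86% lower), and 0 passed an adjusted p of 0.05 by edgeR. The groups then did not overlap in 10 of 38 genes, 2 higher and 8 lower, against 37.4% of all genes (17.2% higher and 20.3% lower). Leaving out vehicle tumor 1 gave 14 of 39 at an unadjusted p under 0.05, 10 higher and 4 lower, against 14.3% of all genes (8.1% higher and 6.15% lower). The groups then did not overlap in 16 of 38 genes, 11 higher and 5 lower, against 35.4% of all genes (16.7% higher and 18.7% lower). Vehicle tumor 1 was singled out with its values known. The median log2 fold change of the chemokine genes tested was 0.77 without it, 0.08 without vehicle tumor 2 and 0.02 without vehicle tumor 3.

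Among the remaining ligands, Ccl22, which draws Ccr4-bearing regulatory and helper T cells, was the only one with every midostaurin tumor above every vehicle tumor. It had 2.39, 3.70 and 1.85 CPM in midostaurin tumors, against 1.32, 0.839 and 0.324 CPM in vehicle tumors, a log2 fold change of 1.68 ± 0.53 (SE, n = 3 each, adjusted p 0.157 by edgeR and 0.0322 by DESeq2), or 1.38 without tumor 3. Its receptor Ccr4 was too low to be tested, at 0.0763, 0.0932 and 0.128 CPM in midostaurin tumors and 0.0507, 0 and 0 CPM in vehicle tumors, values of a few counts that did not overlap. Ccl24, an eosinophil attractant acting on Ccr3, had 0.178, 0.249 and 0.0425 CPM in midostaurin tumors, against 1.70, 0.271 and 1.43 CPM in vehicle tumors (log2 fold change -2.88 ± 0.84 SE, adjusted p 0.142 by edgeR). The groups did not overlap, but vehicle tumor 2 lay close to the midostaurin tumors for Ccl24.

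The Cxcr3 ligands overlapped between the treatments through 1 vehicle tumor. Cxcl9 had 34.9, 38.6 and 70.2 CPM in midostaurin tumors and 75.5, 27.6 and 26.4 CPM in vehicle tumors. Cxcl10 had 39.6, 39.9 and 27.0 CPM in midostaurin tumors and 28.7, 23.1 and 12.8 CPM in vehicle tumors (log2 fold change 0.73 ± 0.30 SE, adjusted p 0.240 by edgeR). Cxcl11 had 4.20, 3.98 and 5.06 CPM in midostaurin tumors and 5.71, 2.84 and 1.64 CPM in vehicle tumors. In these ligands midostaurin tumor 3 did not stand apart, and vehicle tumor 1 was the highest of its group. Without midostaurin tumor 3 the log2 fold changes were 0.30 for Cxcl9, 0.65 for Cxcl10 and 0.47 for Cxcl11. Without vehicle tumor 1 every midostaurin tumor lay above both other vehicle tumors for all 3 ligands. The log2 fold change was then 0.84 for Cxcl9, against 0.16 with all tumors, 1.00 for Cxcl10, and 0.99 for Cxcl11, against 0.39 with all tumors. Each then had an unadjusted p under 0.05 by edgeR, as 14.3% of all genes did, and adjusted p were 0.333, 0.290 and 0.290. Vehicle tumor 1 was singled out with these values known. Leaving out the highest of a group favors such a separation, so the values without it cannot decide whether the groups differ. Cxcr3 itself was at 0.178 to 0.978 CPM in midostaurin tumors and 0 to 1.55 CPM in vehicle tumors.

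Cxcl12, Cxcl14, Cxcl16, Cx3cl1, Ccl11 and Ccl5 overlapped between the treatments as well. Cxcl12, which holds cells in marrow and stroma through Cxcr4, had 3.16, 21.3 and 15.4 CPM in midostaurin tumors and 21.9, 6.50 and 3.47 CPM in vehicle tumors. Cxcl14 had 5.78, 28.2 and 15.7 CPM in midostaurin tumors and 44.3, 12.4 and 18.4 CPM in vehicle tumors. Cxcl16, a membrane-bound ligand of Cxcr6, had 24.5, 65.0 and 40.8 CPM in midostaurin tumors and 36.3, 48.5 and 40.4 CPM in vehicle tumors. Cxcl12 and Cxcl14 varied several-fold within each group, Cxcl16 less. Cx3cl1 ranged from 0.483 to 1.34 CPM in midostaurin tumors and from 0.541 to 1.85 CPM in vehicle tumors. Ccl11, which draws eosinophils through Ccr3, had 0.458, 2.39 and 2.85 CPM in midostaurin tumors and 2.23, 0.271 and 0.162 CPM in vehicle tumors. Ccl5 had 5.09, 6.43 and 4.87 CPM in midostaurin tumors and 8.22, 4.03 and 3.84 CPM in vehicle tumors. Several of these values turned on vehicle tumor 1, without which Ccl11 and Ccl5 no longer overlapped. The separation decides nothing, since both genes had their highest vehicle value in that tumor, which was singled out with this known. Leaving it out gave log2 fold changes of 3.14 for Ccl11 (adjusted p 0.272 by edgeR) and 1.43 for Cxcl12, against 1.11 and 0.33 with all tumors, and turned Cxcl14 to 0.11, against -0.59 with all tumors. Without midostaurin tumor 3 instead, the log2 fold change was 0.92 for Ccl11, -0.18 for Cxcl12 and -1.20 for Cxcl14.

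Of the receptors of lymphocytes and dendritic cells, Cxcr4, Cxcr6, Ccr7 and Xcr1 overlapped between the treatments. Cxcr4 had 6.95, 12.9 and 10.6 CPM in midostaurin tumors and 10.5, 10.1 and 8.54 CPM in vehicle tumors. Cxcr6 had 2.21, 4.16 and 2.64 CPM in midostaurin tumors and 2.46, 2.57 and 2.66 CPM in vehicle tumors. Ccr7, which guides dendritic and naive T cells toward Ccl19 and Ccl21, had 2.24, 5.84 and 2.61 CPM in midostaurin tumors and 2.61, 1.00 and 0.324 CPM in vehicle tumors. Its ligands Ccl19, Ccl21a and Ccl21b did not exceed 0.0621 CPM in any tumor. Xcr1, the receptor of cross-presenting dendritic cells, had 0.305, 1.18 and 0.914 CPM in midostaurin tumors and 1.09, 0.244 and 0.0926 CPM in vehicle tumors. For Ccr7 and Xcr1 only vehicle tumor 1, the highest of its group and singled out with this known, overlapped with the midostaurin tumors. Without it the log2 fold change was 2.44 for Ccr7, against 1.45 with all tumors, and 2.26 for Xcr1, against 0.75 with all tumors (adjusted p 0.270 and 0.308 by edgeR without it). Leaving out midostaurin tumor 3 instead gave 0.91 for Ccr7 and 0.39 for Xcr1.

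Among atypical receptors Ackr3 was the highest. This gene on chromosome 1 (90203980 to 90216751, mm10) also had the highest mean level per kilobase of all receptors over the 6 tumors, with Ccr1 next, but Ccr1 ranked first in vehicle tumors 1 and 3 (15.8 and 13.7 CPM per kilobase, against 14.6 and 9.72 for Ackr3). It had 92.1, 102 and 74.2 CPM in midostaurin tumors, against 49.0, 62.9 and 32.5 CPM in vehicle tumors. Every midostaurin tumor lay above every vehicle tumor. The log2 fold change was 0.90 ± 0.24 (SE, n = 3 each), with an adjusted p of 0.122 by edgeR and 0.00428 by DESeq2, or 0.81 without tumor 3. Ackr1, Ackr2 and Ackr4 did not exceed 1.08 CPM in any tumor. Ackr4, too low to be tested, had 0, 0.0621 and 0 CPM in midostaurin tumors, against 0.0761, 0.812 and 0.162 CPM in vehicle tumors, and did not overlap either.

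The difference between the drug effect in tumors and that in cells entered the fit for 37 genes. Of these, 11 had 0 counts in all 6 cell libraries, such as Ccl12, and could not have been called, which leaves 26. Among the 26, Ccl4, Ccl6, Ccl8, Ccr2 and Ccr7 had counts in midostaurin cells only, 6, 1, 2, 2 and 4 in total. Cxcl16 and Xcr1 had counts in DMSO cells only, 6 and 3 in total. With so few counts and an empty cell group these genes could hardly have been called either, so their results decide nothing. Of the 26, 0 had an adjusted p under 0.05 by edgeR (0.00589% of all genes tested), and DESeq2 (0.597%) and limma-voom (0.00589%) called 0 as well. At an unadjusted p under 0.05 there was 1 of 26, Ackr3, against 6.08% of all genes, with a difference of log2 fold changes, tumors minus cells, of 1.12 ± 0.45 (SE, adjusted p 0.769 by edgeR). For Cxcl1 the difference was 4.57 ± 2.26 (SE), and -0.19 without midostaurin tumor 3.

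Other genes of the pathway also showed 0 of their tested members past an adjusted p of 0.05 by edgeR in the tumors. Of 7 chemokine genes with other names, such as Cd74 and Ccrl2, 5 had a fold change above 0; of 20 signal transducers 5 did, and of 11 transcription factors and feedback genes 10 did. Ccrl2, an atypical chemerin-binding receptor, had 10.2, 52.9 and 4.89 CPM in midostaurin tumors and 4.82, 4.06 and 1.85 CPM in vehicle tumors, again with tumor 3 highest. Ppbp, also of these 7, had 1.48, 3.79 and 0.723 CPM in midostaurin tumors and 4.16, 0.271 and 0.810 CPM in vehicle tumors. For Ppbp vehicle tumor 1 was the highest. Irf1, an interferon-induced transcription factor, had 212, 185 and 128 CPM in midostaurin tumors and 98.9, 79.5 and 61.8 CPM in vehicle tumors without overlap (log2 fold change 1.14 ± 0.23 SE, adjusted p 0.0907 by edgeR and 6e-05 by DESeq2). Irf8, of the same list, was lower without overlap, at 31.7, 31.1 and 35.2 CPM in midostaurin tumors and 52.0, 41.0 and 43.9 CPM in vehicle tumors. Its log2 fold change was -0.48 ± 0.11 (SE, adjusted p 0.108 by edgeR and 0.0107 by DESeq2). Arrb1, the beta-arrestin that hands chemokine receptors to endocytosis, had 142, 106 and 75.9 CPM in midostaurin tumors and 61.6, 65.6 and 42.0 CPM in vehicle tumors, also without overlap (log2 fold change 0.95 ± 0.26 SE, adjusted p 0.127 by edgeR and 0.00466 by DESeq2). Arrb2, the other beta-arrestin, lay the opposite way without overlap, at 42.0, 71.0 and 56.0 CPM in midostaurin tumors and 93.6, 76.4 and 85.7 CPM in vehicle tumors (log2 fold change -0.59 ± 0.18 SE, adjusted p 0.155 by edgeR and 0.0283 by DESeq2). Of 7 inducers tested, all 7 had a fold change above 0, with a median log2 value of 2.96, or 0.17 without tumor 3. Of 9 proteases and scaffolds that process or hold chemokines 7 had a fold change above 0, with a median of 0.55, or 0.28 without tumor 3.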

How the data were processed

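The deposited tables hold whole-number counts per gene for 12 libraries. FastQC 0.11.2, Bowtie2 2.3.4, RSEM and the mm10 build are named in the submitters' processing notes; the annotation, the strand setting of counting and any rounding of counts by the authors are not given in the sources used here. Libraries were prepared with a directional poly(A) kit per the labels' protocols. Symbols, positions and exonic lengths came from GENCODE vM21 (GRCm38), which paired 55154 of 55335 identifiers (99.7%) with a symbol. Counts were filtered with filterByExpr, scaled by TMM and tested with edgeR 4.0.16 (quasi-likelihood F-test, R 4.3.3) over all genes, with Benjamini-Hochberg adjustment at 0.05. Tumors and cells were fitted apart for the drug contrasts and together for tumors against cells and for the interaction. DESeq2 1.42.0, limma-voom (limma 3.58.1), other scalings, no filter, each library left out and a block on the library number were alternatives. An adjusted p that DESeq2 left empty stayed empty. The edgeR fits were run on simulated counts with the same dispersion for every gene, which does not show how they behave on these tumors. DESeq2 and limma-voom were not run on simulated counts.

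Values in every library are given for genes past a threshold or with an unadjusted p under 0.05 in the tumor drug contrast, made in culture, highest per kilobase, or at least 5 times higher in 1 tumor than in every other. The genes and lists were chosen with earlier results of these data known. Library numbers paired the cell libraries: same-numbered libraries correlated at 0.704 to 0.903 in their deviations from the group means. Tumor numbers 2 and 3 correlated at 0.153 and -0.186 and were not taken as pairs. One count was worth about 0.03 CPM. Ccl21a with Ccl21b and Ccl27a with Ccl27b are near-identical copies whose counts are uncertain, and Ackr1 and Ccr9 overlap other genes on their strand. RefSeq promoter windows were found for 45 of the 60 genes; protein sequences were not used here. Of the genes counted, 1 chemokine gene and 1 marker are not reported here by name.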

Additional observations from a re-analysis of the deposited data

How the results depend on the processing

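In tumors DESeq2 called 5 chemokine genes where edgeR called 0, namely Ccl12, Ccl7, Ccr2, Ackr3 and Ccl22 (1447 and 7 of all genes), and the cause was not tested. Over single libraries left out, edgeR called 0 chemokine genes in the tumor and cell drug contrasts and in the interaction. It called 26 to 30 for vehicle tumors against DMSO cells, where 6007 to 8013 of the 17445 to 17590 genes tested were called. Of all genes, 0 to 1 were called in the tumor contrast, 0 in the cell contrast and 1 to 6 in the interaction. With so few calls at all, the 0 chemokine genes say little. Over the same left-out libraries the log2 fold change in tumors ranged from -0.0407 to 5.26 for Cxcl1, -1.36 to 5.49 for Cxcl5, -1.19 to 0.88 for Ccl2 and -0.71 to 3.49 for Cxcl13, the low end being without midostaurin tumor 3 each time. The interaction of Cxcl1 ranged from -0.19, without the same tumor, to 5.17, and its log2 fold change in cells from -0.47 to 0.80. Limma-voom gave -0.22 for Ccl2 in tumors. Counting 3 counts summed over the cell libraries as absence raised the genes at trace level in culture to 16, against 7. Against culture, Xcr1 lost its call without vehicle tumor 1 (adjusted p 0.175) or 2 (0.0547) or DMSO cells 1 (0.0945) or 2 (0.117), Cxcl2 without DMSO cells 2 (0.0605) and Ccl5 without DMSO cells 3 (0.0578), all by edgeR. The replicate block left 0 chemokine genes called in cells (8 of all genes) and 0 in tumors (0 of all 16094 genes). In tumors only numbers 2 and 3 occur in both groups, so that blocked fit could hardly call any gene and decides nothing. Leaving out both cell libraries numbered 1, chosen after seeing the data, also gave 0.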
